A study of Mus musculus with 6 samples.

Results

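The immediate early transcription factors described here are 10 genes, Fos, Fosb, Jun, Junb, Jund, Egr1, Egr2, Nr4a1, Ier2 and Atf3, found by symbol among the 52183 genes of the deposited table, where each symbol matched 1 row. Haematopoietic stem cells, which sustain all blood lineages, were sorted by flow cytometry from the bone marrow of 4-month-old female mice, and their poly(A) RNA was sequenced in 3 libraries labelled Thbs1 knockout and 3 labelled control. The comparison asks what the deletion of Thbs1 changes in these cells. The labels give no strain, sort gate or deleting allele for either group. They also leave unsaid whether each library is a different animal, so the spread behind every p-value may be technical. Levels are FPKM, which divide a gene's fragments by the length of its exons and by the depth of the library, so that genes of different length can be set side by side.

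Immediate early genes are switched on within minutes of a signal, without new protein synthesis, because their regulators already sit on the DNA. Growth factors, stress and the isolation of cells from a tissue all raise them, in large part through MAP kinases that act on serum response factor with its ternary complex partners and on CREB. JUN and FOS proteins pair to form AP-1, JUN also pairs with itself and with ATF proteins, and EGR1 is a zinc finger factor that in mice has been tied to the quiescence and niche retention of haematopoietic stem cells. JUNB and NR4A1 have also been tied in mice to restraint of stem cell proliferation.

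The gene named in the knockout label was not lower in the libraries that carry it. Thbs1, which encodes the secreted matrix protein thrombospondin 1, stood at 10.8, 8.50 and 7.68 FPKM in knockout-labelled libraries 1 to 3, against 4.12, 13.8 and 2.33 FPKM in control libraries 1 to 3. The log2 change, knockout-labelled minus control, was 0.65 ± 0.43 SE (limma adjusted p = 0.503), and without control library 2 it was 1.26 (adjusted p = 0.0344). The part of the gene that was deleted is not given in the labels, and the FPKM sums all exons, so every direction below follows the labels alone. Depths read from the steps of FPKM were 25740000 to 30890000 reads in the knockout-labelled libraries and 22730000 to 25920000 in the control libraries. All 12 markers of haematopoietic stem cells were tested, with a summed level of 804 to 891 FPKM in knockout-labelled and 819 to 912 FPKM in control libraries. Of these, Ly6a, the gene of the surface marker SCA-1, fell to 76.9 ± 11.1 FPKM in knockout-labelled libraries, against 115 ± 6.78 FPKM in control libraries (SD, n = 3 each; log2 change -0.58, adjusted p = 0.0286 by limma). Wholly higher in knockout-labelled libraries were 3 of the 12 (Procr, Tek and Fgd5), and wholly lower 4 (Ly6a, Slamf1, Hlf and Cd34). Among all tested genes, 12.6% and 10.1% were. Slamf1 stood at 6.17 to 6.51 against 7.70 to 9.20 FPKM, and Procr at 53.1 to 66.96 against 43.6 to 47.4 FPKM. Of the 12, Ly6a alone passed the test. Several defining markers of other cells were near 0: Ms4a1 and Pax5 of B cells, Cd3e and Cd3d of T cells, Csf1r and Adgre1 of monocytes and macrophages, and S100a9 and Ngp of neutrophils were under 1 FPKM in every library. Other genes of the same lists were not: Lyz2 stood at 325 to 359 and 343 to 383 FPKM, Cd68 at no more than 8.96 FPKM and 9.93 to 13.2 FPKM, C1qb at 4.19 to 5.64 and 4.26 to 4.90 FPKM, S100a8 at 0.67 to 1.49 and 0.38 to 0.56 FPKM, and Elane at 0.36 to 1.25 and 0.44 to 1.88 FPKM in knockout-labelled and control libraries. The summed levels of 6 megakaryocyte markers, 261 to 368 FPKM in knockout-labelled and 387 to 486 FPKM in control libraries, and of 7 erythroid markers, 22.2 to 25.8 and 30.9 to 38.4 FPKM, did not overlap between the groups. Nor did those of 7 B cell markers, 24.3 to 27.8 and 28.9 to 31.1 FPKM with Cd79b as their most abundant gene, and of 7 T and NK cell markers, 57.4 to 69.4 and 80.0 to 107 FPKM with Nkg7 as theirs. Wholly lower were 2 of 6 tested megakaryocyte genes (Pf4 and Selp) and 1 of 4 erythroid genes (Hbb-bt, 4.06 against 14.8 FPKM). So were 1 of 2 B cell (Cd79b) and 1 of 3 T and NK cell genes (Nkg7), where 10.1% of all tested genes were. The most abundant erythroid gene, Klf1, had the higher mean in knockout-labelled libraries (12.9 against 10.3 FPKM). Of these 4 lists, Selp, Hbb-bt and Nkg7 fell at a limma adjusted p below 0.05, where 0.996% of all tested genes were called lower. The part of these cell types in the results below was not tested.

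The DNA just upstream of 4 of these genes is shown because it holds letters that CREB, ATF and EGR factors are known to bind. RefSeq windows (GRCm38.p6, 250 bases before to 50 after the start) were found for 8 of the 10 members, and not for Egr1 and Ier2. Each line gives the 120 bases before the RefSeq start on the gene's own strand, at chr4:95052223-95052342 (minus strand) for Jun, chr8:84978749-84978868 (minus strand) for Junb, chr12:85473770-85473889 (plus strand) for Fos and chr15:101266726-101266845 (plus strand) for Nr4a1. Capitals mark the CRE core TGACG or its complement CGTCA, the EGR site GCGNGGGCG on either strand, and the variant CRE TGACATCA.
Jun: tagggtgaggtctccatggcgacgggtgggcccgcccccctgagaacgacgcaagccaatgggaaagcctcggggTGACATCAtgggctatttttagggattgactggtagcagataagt
Junb: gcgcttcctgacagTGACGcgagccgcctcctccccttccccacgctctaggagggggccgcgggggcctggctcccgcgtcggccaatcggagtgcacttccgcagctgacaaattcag
Fos: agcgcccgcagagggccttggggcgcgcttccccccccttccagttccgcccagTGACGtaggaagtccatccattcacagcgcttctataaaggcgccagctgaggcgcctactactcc
Nr4a1: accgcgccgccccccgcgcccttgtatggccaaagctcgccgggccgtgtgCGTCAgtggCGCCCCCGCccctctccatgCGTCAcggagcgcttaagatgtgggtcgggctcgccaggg

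Searched on both strands of the whole windows, the CRE core TGACG was present for 6 of the 8 members, Fos, Fosb, Junb, Egr2, Nr4a1 and Atf3, and in 20.8% of all 32851 windows (for genes with any window, 23.0%). Nr4a1 held 4 copies, and its EGR site lay between the 2 copies nearest the start. The EGR site GCGNGGGCG was present for Fosb and Nr4a1 and in 5.55% of all windows. The CArG box, the binding site of serum response factor, was found only for Egr2 among the 8, in 1.63% of all windows, and the full CRE TGACGTCA (1.79% of windows), which holds the core, and the AP-1 site TGANTCA (7.81%) were found for none of them. The variant CRE TGACATCA, which was added to the search after the windows had been read and does not hold TGACG, was present for Jun and in 3.62% of windows. These matches are letters in a window, and no binding was measured. Sites more than 250 bases before the start were not searched, so a motif not found here may lie further upstream.

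Egr1 rose in the knockout-labelled libraries, Jun, Junb, Jund, Nr4a1 and Ier2 had higher means there without passing the test, and Fos had a lower one. Of the 10 members, 7 had at least 1 FPKM in at least 3 libraries and were tested with limma on log2(FPKM + 1). The call was made for 1 member, Egr1, as a rise and for 0 as a fall, where 0.566% of the 12555 genes tested were called higher and 0.996% lower (1.56% in all) at an adjusted p below 0.05. An unadjusted p below 0.05 was reached by 5 members, all with higher means in the knockout-labelled libraries (Egr1, Junb, Nr4a1, Ier2 and Jun), where 8.92% of tested genes reached it in that direction, 7.46% in the other and 16.4% in all. The log2 change was above 0 for 6 of the 7 tested members and for 53.4% of all tested genes, with medians of 0.43 and 0.01. Values of the knockout-labelled and control libraries did not overlap for 4 members, Egr1, Junb and Ier2 above and Fos below, where 12.6% of tested genes lay wholly above and 10.1% wholly below, 22.8% in all. In bulk libraries such as these, fewer cells with a transcript and less transcript per cell cannot be told apart.

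Of the 3 other scalings, median of ratios and quantile normalization each left 1 member called, and TPM called 3. Rescaled so that each library sums to 1000000 (TPM), Egr1, Junb and Ier2 were called higher (limma adjusted p = 0.0102, 0.0200 and 0.0144). Under TPM, however, more genes passed the filter, and 13.2% of the 15277 genes tested were called higher and 0.838% lower, 2016 and 128 genes against 71 and 125 with FPKM, and the median of all genes moved to 0.19. Relative to that median the changes were 0.66 for Egr1, 0.45 for Junb and 0.20 for Ier2, close to those with FPKM.

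**Figure D1:**
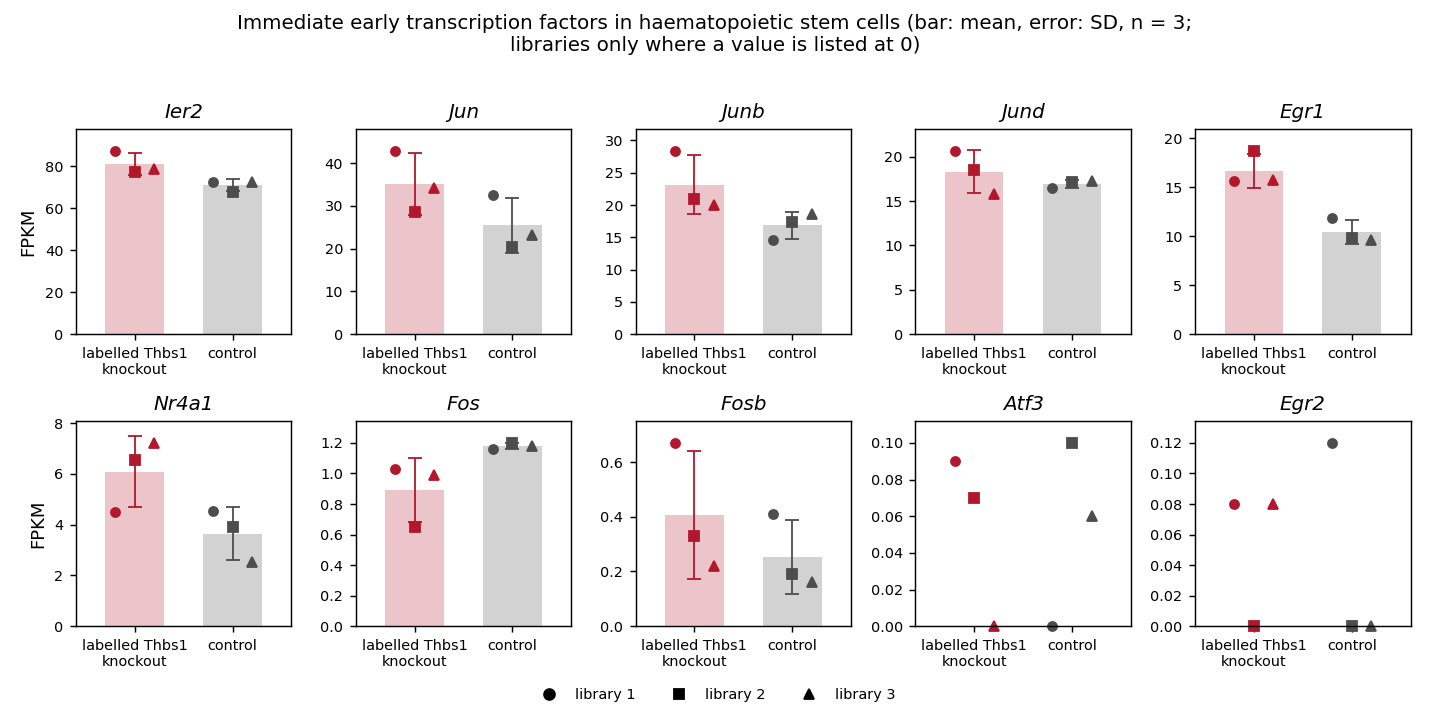
FPKM of the 10 immediate early transcription factors, each on its own axis from 0, in 3 libraries labelled Thbs1 knockout and 3 control libraries (points), with the mean and SD as bar and error where no library is listed at 0. Egr1, Junb and Ier2 lie wholly higher in the knockout-labelled libraries and Fos wholly lower, while Atf3 and Egr2 stay at or below 0.12 FPKM in every library.

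Of the EGR factors, Egr1 carried nearly all the signal. Egr1 (ENSMUSG00000038418, chromosome 18, 34859823 to 34864984, GRCm38) stood at 15.6, 18.7 and 15.7 FPKM in knockout-labelled libraries 1 to 3, against 11.9, 9.83 and 9.67 FPKM in control libraries 1 to 3. Every knockout-labelled library was above every control library, and the group means were 16.7 ± 1.76 and 10.5 ± 1.24 FPKM (SD, n = 3 each), a ratio of 1.59. The log2 change was 0.63 ± 0.11 SE (95% interval 0.38 to 0.87, limma adjusted p = 0.0286), with between 986 and 2184 reads behind each value. The rise kept its direction in all 14 alternative settings, at log2 changes of 0.55 to 0.85, but lost its call in 8 of them (adjusted p from 0.0102 to 0.170). Leaving out control library 2 or 3 gave adjusted p = 0.0959 and 0.0848, and leaving out knockout-labelled library 1, 2 or 3 gave 0.0519, 0.104 and 0.0733. Without control library 1 the call remained, at 0.0293.

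Egr2 (ENSMUSG00000037868, chromosome 10, 67535475 to 67542188), a relative of Egr1, was listed at 0.08, 0 and 0.08 FPKM in the knockout-labelled libraries, against 0.12, 0 and 0 FPKM in the control libraries, and was not tested. These values rest on 0 to 11 reads, and 3 reads, the limit that a count of 0 allows, are worth 0.0339 FPKM in knockout-labelled library 2 and 0.0382 and 0.0388 FPKM in control libraries 2 and 3. Such limits cover counting error only. Egr3 reached at most 0.11 FPKM and Egr4 at most 0.02 FPKM, both in control libraries. NAB1 and NAB2 are corepressors that bind EGR proteins, and Nab2 is itself an EGR target. Nab2 stood at 7.29, 6.04 and 6.68 FPKM, against 5.57, 5.76 and 5.88 FPKM in control libraries, with no overlap but no call (log2 change 0.18 ± 0.11 SE, adjusted p = 0.428 by limma). Antisense and neighbouring genes overlap 1050 of the 2941 exon bases of Nab2 and more, and strand was not recorded. Nab1 did not differ beyond its spread (22.1 ± 3.51 and 23.2 ± 2.95 FPKM, adjusted p = 0.820 by limma, SD, n = 3 each).

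The JUN genes were far more abundant than the FOS genes. Jun (ENSMUSG00000052684, chromosome 4, 95049034 to 95052222), the founding AP-1 subunit, stood at 42.8, 28.6 and 34.1 FPKM in knockout-labelled libraries, against 32.6, 20.4 and 23.3 FPKM in control libraries. The groups overlapped, because control library 1 exceeded knockout-labelled library 2. Its log2 change was 0.46 ± 0.18 SE (95% interval 0.06 to 0.86, limma adjusted p = 0.236), and the antisense gene Junos, which shares 232 exon bases with it, was at 0.06 to 0.28 FPKM. Junb (ENSMUSG00000052837, chromosome 8, 84974484 to 84978718), a JUN protein that restrains growth in many cells, stood at 28.4, 20.99 and 20.1 FPKM, against 14.6, 17.4 and 18.6 FPKM in control libraries. All 3 knockout-labelled libraries were higher, library 1 by most (log2 change 0.43 ± 0.14 SE, 95% interval 0.12 to 0.73, limma adjusted p = 0.163). Without that library the change was 0.28 (adjusted p = 0.291). Junb shares 173 exon bases with Prdx2 on the opposite strand, and Prdx2 was level at 84.7 ± 3.73 and 84.4 ± 7.41 FPKM (log2 change 0.01, limma adjusted p = 0.977).

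Jund, the JUN gene that is least dependent on stimulation, had the smallest change of the JUN genes. The single-exon gene (ENSMUSG00000071076, chromosome 8, 70698949 to 70700616) stood at 20.6, 18.5 and 15.8 FPKM in knockout-labelled libraries, against 16.5, 17.1 and 17.2 FPKM in control libraries, and the groups overlapped. Its log2 change of 0.10 ± 0.10 SE has a 95% interval of -0.13 to 0.33 (limma adjusted p = 0.678), and without knockout-labelled library 1 it was 0.01. An antisense gene model, Gm11175, overlaps 877 of its 1668 exon bases but was listed at 0 in all 6 libraries. Summed over the 3 JUN genes, levels were 91.9, 68.1 and 70.0 FPKM in knockout-labelled libraries, against 63.7, 54.9 and 59.1 FPKM in control libraries, without overlap. The shares of this sum did overlap, with Jun at 41.9% to 48.7% and 37.2% to 51.2%, so the make-up of the JUN pool did not separate the groups.

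FOS transcripts were scarce. Fos (ENSMUSG00000021250, chromosome 12, 85473890 to 85477273) stood at 1.03, 0.65 and 0.99 FPKM in knockout-labelled libraries, against 1.16, 1.20 and 1.18 FPKM in control libraries, with 40 to 75 reads behind each value. It was the tested member with the lower mean in the knockout-labelled libraries, and it entered the test through all 3 control libraries and 1 knockout-labelled library. Its log2 change on the log2(FPKM + 1) scale, which understates changes at such levels, was -0.21 ± 0.17 SE (95% interval -0.60 to 0.18, limma adjusted p = 0.597). Fosb (ENSMUSG00000003545, chromosome 7, 19302696 to 19310051), whose protein persists longer than FOS in its truncated form, stood at 0.67, 0.33 and 0.22 FPKM, against 0.41, 0.19 and 0.16 FPKM in control libraries. It fell short of the filter and was not tested, and its groups overlapped.

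The FOS relative Fosl2, which encodes FRA-2, exceeded Fos in all 3 knockout-labelled libraries and in control library 1. It stood at 2.41, 2.22 and 1.65 FPKM in knockout-labelled libraries, against 1.29, 0.64 and 1.14 FPKM in control libraries, without overlap (ratio of means 2.05, log2 change 0.62 ± 0.19 SE, adjusted p = 0.149 by limma). Its share of the 4 FOS genes was 46.8%, 47.1% and 40.1%, against 28.2%, 22.3% and 27.1% in control libraries, while Fosl1 did not separate the groups (1.27 ± 0.235 and 1.43 ± 0.511 FPKM, SD, n = 3 each). Fosl1 shares 1163 of its 2033 exon bases with Ccdc85b on the opposite strand, and strand was not recorded. The total of the 4 FOS genes, and so the share of Fosl2 and the ratio of JUN to FOS, may therefore hold reads of Ccdc85b. The FOS sum overlapped between groups, at 5.15, 4.71 and 4.11 FPKM against 4.58, 2.87 and 4.21 FPKM. JUN transcript exceeded FOS transcript 14.5-fold to 17.8-fold in knockout-labelled and 13.9-fold to 19.1-fold in control libraries.

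**Figure D2:**
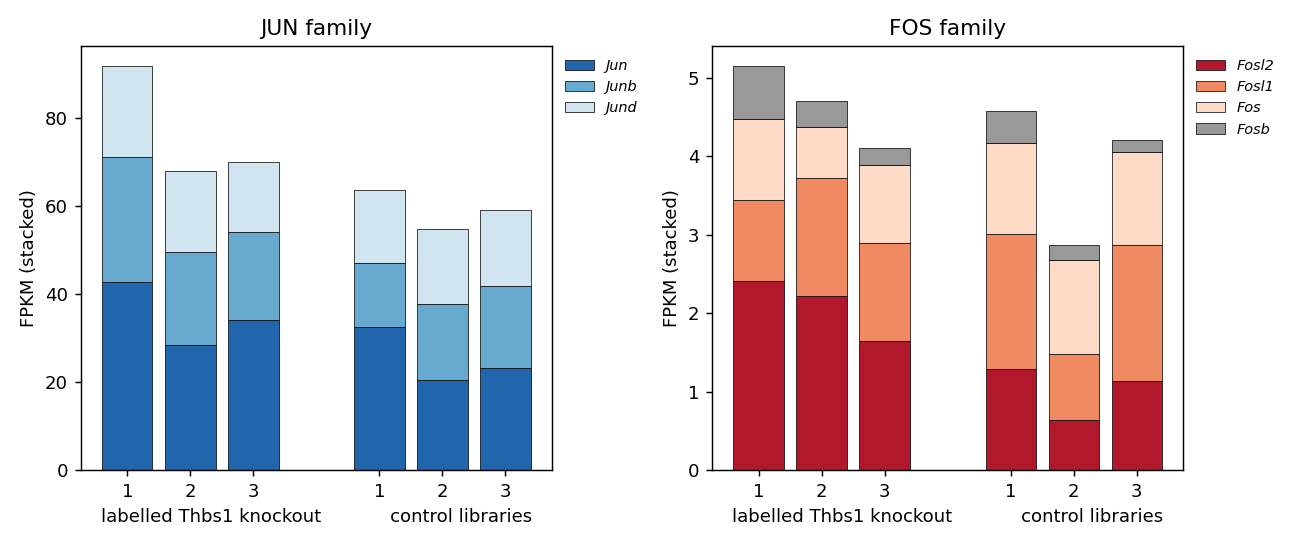
Stacked FPKM of the JUN genes (left) and of the FOS genes (right), by library, with the libraries labelled Thbs1 knockout left of the control libraries; the vertical scales differ. The JUN sum lies at 68.1 FPKM or more in the knockout-labelled libraries and at 63.7 FPKM or less in the control libraries, and the Fosl2 segment is the larger in the knockout-labelled libraries.

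Nr4a1 (ENSMUSG00000023034, chromosome 15, 101254269 to 101274795) encodes the orphan nuclear receptor NUR77. It stood at 4.51, 6.55 and 7.22 FPKM in knockout-labelled libraries, against 4.55, 3.89 and 2.51 FPKM in control libraries. The groups touched, since knockout-labelled library 1 was just below control library 1. The log2 change was 0.61 ± 0.20 SE (95% interval 0.16 to 1.07, limma adjusted p = 0.172), as large as that of Egr1 but with a wider spread. Its relative Nr4a2 stood at 2.45, 1.68 and 1.99 FPKM, against 1.45, 1.47 and 1.66 FPKM in control libraries (log2 change 0.26 ± 0.16 SE, adjusted p = 0.458 by limma), and Nr4a3 at no more than 0.04 FPKM. Ier2 (ENSMUSG00000053560, chromosome 8, 84661331 to 84662852), a short gene for a nuclear protein, was the most abundant member. It stood at 87.3, 77.1 and 78.9 FPKM in knockout-labelled libraries, against 72.7, 67.6 and 72.5 FPKM in control libraries. The groups did not overlap, but the difference was small (ratio 1.14, log2 change 0.19 ± 0.07 SE, adjusted p = 0.234 by limma). Atf3 (ENSMUSG00000026628, chromosome 1, 191170296 to 191218039), which encodes a stress-induced ATF factor, was listed at 0.09, 0.07 and 0 FPKM, against 0, 0.10 and 0.06 FPKM in control libraries, on 0 to 6 reads, and was not tested.

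In order of level, knockout-labelled libraries had Ier2 first, then Jun, then Junb, Jund and Egr1, each of which overlapped its neighbour in range, then Nr4a1, and Fos and Fosb, which overlapped. In control libraries the order was Ier2, Jun, Jund and Junb, which overlapped, Egr1, Nr4a1, Fos and Fosb. Atf3 and Egr2 came last in both. Egr1 thus lay below Junb and Jund without overlap in control libraries, while its range overlapped that of Jund in the knockout-labelled ones.

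The members did not move as a block from library to library. Knockout-labelled library 1, also the most deeply read, was the highest of all 6 for Jun, Junb, Jund and Ier2, and for the untested Fosb. The same library was the lowest of its group for Egr1 and Nr4a1. Leaving it out lowered the log2 changes of Jun to 0.31 and of Ier2 to 0.14, and gave 0.67 for Egr1 and 0.79 for Nr4a1. The residual spread between libraries was larger than in 91.7% of tested genes for Nr4a1, in 91.0% for Jun and in 79.8% for Junb, and than in 54.4% for Egr1 and 15.3% for Ier2. By Euclidean distance between centred log2(FPKM + 1) values over the 6 libraries, the genes nearest to the mean profile of the 7 tested members were Ccdc137 (0.06), E2f6 (0.08), Ubqln4 (0.09) and Rap2a (0.09). The members themselves lay at 0.19 (Ier2) to 0.75 (Nr4a1) from it.

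**Figure D3:**
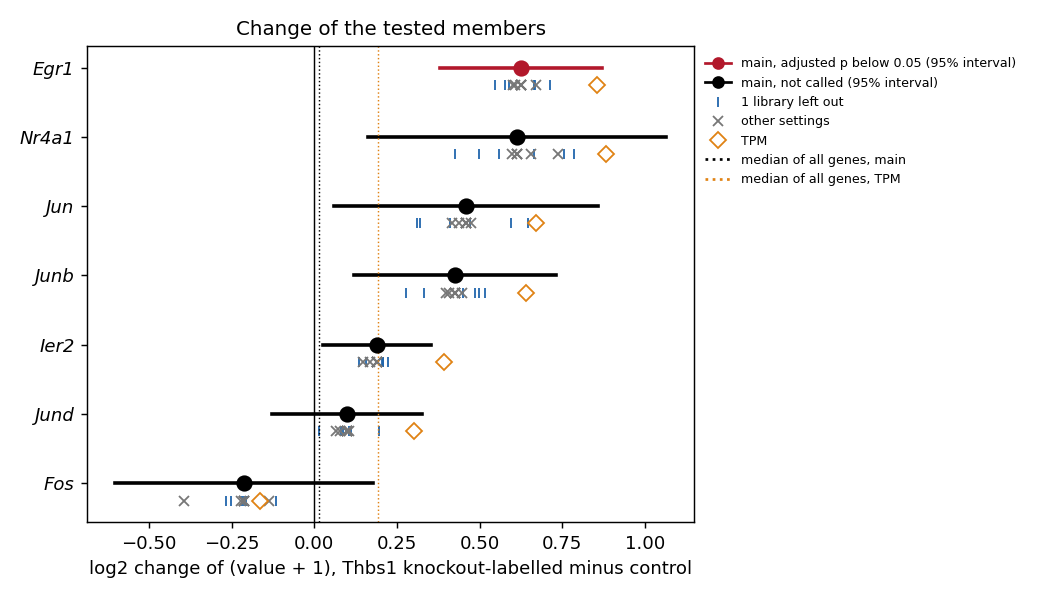
Log2 change (libraries labelled Thbs1 knockout minus control) of the 7 tested members with its 95% interval, and, just below each, its value under each alternative setting that tested it; dotted lines mark the median change of all genes. Each member keeps its direction throughout, Egr1 alone is called in the main setting, and the TPM values shift to the right together with the median of all genes.

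No call was made among genes of the signalling machinery above these genes, or of JUN and FOS turnover and cofactors. Of 22 MAP kinase cascade genes, 13 genes of serum response factor, ternary complex and CREB factors, and 8 genes of JUN and FOS turnover and cofactors, 0 were called by limma, where 1.56% of all tested genes were called. At a share that small, 0 calls in lists of this size say little about these genes. Under TPM, which called 13.2% of all genes higher, the counts were 2, 0 and 1. By unadjusted p, 2, 2 and 1 of them were below 0.05, where 16.4% of all tested genes were. Values lay wholly higher in knockout-labelled libraries for 4, 1 and 1 of them, and wholly lower for 2, 3 and 1. Among all tested genes, 12.6% and 10.1% did. The medians of the log2 changes were -0.05, -0.09 and 0.03. Map2k1, which encodes the ERK kinase MEK1, stood at 33.9 ± 2.99 FPKM in knockout-labelled and 28.0 ± 2.37 FPKM in control libraries (SD, n = 3 each; log2 change 0.27, adjusted p = 0.183 by limma). Sos1, a RAS exchange factor, had a log2 change of -0.26 (limma adjusted p = 0.362). The ternary complex factor Elk4, and Atf1 and Crtc3 of the CREB pathway, stood at -0.25, -0.19 and -0.20 (limma adjusted p = 0.250, 0.298 and 0.393), though under TPM Atf1 was at 0.0083. Men1, which encodes the JUND-binding protein menin, stood at 46.6 ± 4.87 and 36.4 ± 5.15 FPKM (log2 change 0.35, limma adjusted p = 0.167, SD, n = 3 each), and the ubiquitin ligase genes Huwe1 and Fbxw7 at log2 changes of -0.23 and -0.26.

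Genes that shut the response off had changes on both sides, more of them below 0 than above. Of 17 tested MAP kinase phosphatases, mRNA decay factors, Sprouty and SPRED genes, limma called 0, and the median log2 change was -0.12. The log2 change was above 0 for 5 and below 0 for 12, where 53.4% of all tested genes were above 0. At an unadjusted p below 0.05, 2 were higher and 3 lower, where 8.92% and 7.46% of all tested genes were. Spry1, a receptor signalling antagonist, stood at 17.2, 16.02 and 14.8 FPKM, against 12.3, 12.5 and 11.8 FPKM in control libraries (log2 change 0.36 ± 0.09 SE, adjusted p = 0.0800 by limma). Dusp2, a nuclear MAP kinase phosphatase, stood at 54.6 ± 6.81 and 42.8 ± 2.19 FPKM (SD, n = 3 each; adjusted p = 0.118 by limma). Spred2, an inhibitor of the RAS to ERK path, went the other way, at 7.28, 7.09 and 8.88 FPKM, against 11.3, 10.1 and 11.8 FPKM in control libraries (log2 change -0.46 ± 0.11 SE, adjusted p = 0.0836 by limma). None of these 3, which were named for the smallest p of the list, overlapped between groups. Of the 17, 2 lay wholly higher and 4 wholly lower, where 12.6% and 10.1% of all tested genes did. Of 12 tested AP-1 and ATF partners, limma called 0, with a median log2 change of -0.03. An unadjusted p below 0.05 was reached by 1, Fosl2, where 16.4% of all tested genes reached it. Maff, a small MAF factor, and Atf6, of the unfolded protein response, stood at log2 changes of 0.17 and -0.31 (limma adjusted p = 0.407 and 0.323). Of the 3 tested EGR and NR4A relatives and corepressors (median 0.18), limma called 0, and 0 reached an unadjusted p below 0.05.

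Other immediate early genes gave 3 rises among 25 tested and 22 genes without a call, where 0.566% of all tested genes were called higher. Myc, a growth-promoting factor, rose to 387, 423 and 400 FPKM in knockout-labelled libraries, against 273, 248 and 225 FPKM in control libraries (log2 change 0.70 ± 0.08 SE, adjusted p = 0.00446 by limma). Klf10, a TGF-beta target, rose by 0.61 ± 0.09 SE (adjusted p = 0.0112 by limma; 0.0502 without knockout-labelled library 2). Plk2, a stress-responsive kinase gene, rose by 0.78 ± 0.15 SE (limma adjusted p = 0.0377). Its call was lost without control library 1, 2 or 3 (adjusted p = 0.0981, 0.108 and 0.0924) and without knockout-labelled library 1 or 2 (0.0829 and 0.122). The median log2 change of the 25 was 0.04, beside 0.01 for all tested genes. Without control library 1, the cytokine-induced kinase gene Pim1 was called lower (log2 change -0.98 ± 0.16 SE, adjusted p = 0.0329 by limma), and Plk2 was not called.

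Of 12 tested heat shock genes, which also answer to the handling of cells, 5 rose, Hspa8, Hsph1, Dnaja1, Hspa1b and Dnajb1, where 0.566% of all tested genes were called higher. All 12 had log2 changes above 0, with a median of 0.33, where 53.4% of all tested genes had. The other 7 were not called, among them Hsp90aa1, Dnajb4 and Hsp90ab1, whose groups overlapped (log2 changes of 0.05, 0.09 and 0.13). Hspa8, the constitutive HSP70, stood at 667, 602 and 592 FPKM, against 359, 321 and 352 FPKM in control libraries (limma adjusted p = 0.000921), Hsph1 rose by 0.91 ± 0.11 SE and Dnaja1 by 0.64 ± 0.08 SE. Hspa1b and Dnajb1 fall outside the rule for named genes and are given because their calls were known. Hspa1b, whose reads may be split with its near-copy Hspa1a, was read at 10.1, 5.99 and 4.27 FPKM, against 0.95, 1.41 and 1.51 FPKM in control libraries. The call of Dnajb1 was lost whichever library was left out. Knockout-labelled library 1 was the highest for Hspa8, Hsph1, Dnaja1, Hspa1b and Dnajb1, as it was for the JUN genes and Ier2. The part of cell handling in the values of Egr1 and the JUN genes was not tested.

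**Figure D4:**
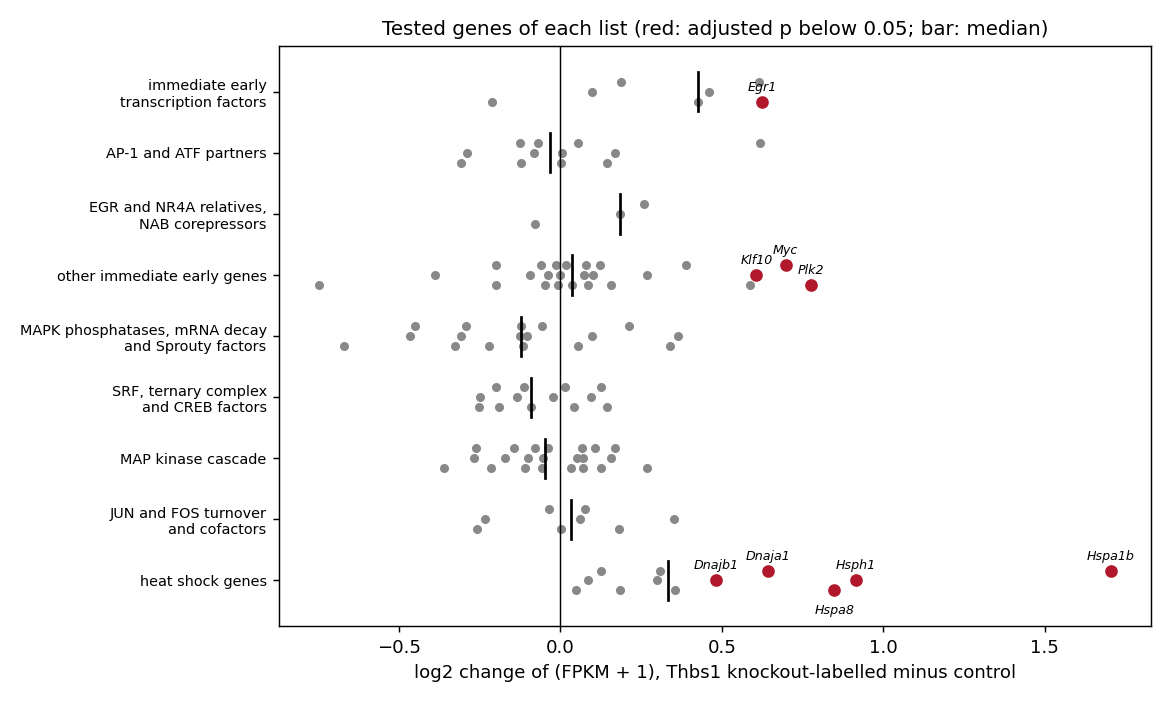
Log2 change (libraries labelled Thbs1 knockout minus control) of each tested gene, by list, with called genes in red and the median of each list as a bar. Rises are called for Egr1, for 3 other immediate early genes and for 5 heat shock genes, where 0.566% of all tested genes were called higher. The MAP kinase, serum response factor and turnover lists lie around 0 with 0 calls, near the 1.56% called among all tested genes.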

How the data were processed

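The authors deposited FPKM values for 52183 genes in 6 libraries, made by a full-length kit primed on poly(A) from 2 ng of total RNA, per the labels' protocols. STAR, edgeR, FastQC 0.11.5 and the builds GRCm38 and mm10 appear in the submitters' processing notes; neither the annotation nor the counting rule is given in the sources used here. The kit does not mark strand, so reads of a gene and its antisense partner cannot be told apart. All 52183 identifiers matched GENCODE M21 (GRCm38), the source of positions and exon lengths. The FPKM depend on exon lengths chosen by the authors and on the sum of all reads, so a few abundant features can shift every gene of a library.

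The test was limma (version 3.58.1, R version 4.3.3) on log2(FPKM + 1), for genes that reached 1 FPKM in 3 or more libraries (two-sided, intensity trend, Benjamini-Hochberg adjustment over 12555 genes, threshold 0.05). The script was tested on simulated data. Depth was the read number that made values of genes with at most 400 bp of exon whole multiples of 1 read; between 99.4% and 99.7% were then whole within 0.1 read. Reads behind a value are estimates from that depth. No 2 libraries held identical values, and libraries of a group correlated across genes at 0.983 to 0.987, against 0.977 to 0.983 between groups; control library 1 with knockout-labelled library 3 (0.98289) exceeded 2 pairs within a group.

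Members, gene lists and tests were chosen with earlier results of these data known. Named genes were all members, Thbs1, the 3 genes of each related list with the smallest p, and the 4 with the nearest profile. A gene that this rule names is not reported here. Alternatives were another pseudocount, 2 other filters, 3 other scalings, no trend, a replicate block, and leaving out each library. Promoter sequences are from RefSeq (GRCm38.p6).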

Additional observations from a re-analysis of the deposited data

How the results depend on the processing

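All 7 tested members kept the sign of their change under each of the 14 settings that tested them. The count of called members, 1 in the main setting, was 0 with no filter, 0 with no intensity trend, 0 with the replicate block, 3 with TPM, and 0 to 1 with a library left out. Called genes over the whole table, 196 in the main setting, were 24 with no filter, 2144 with TPM, 89 with no intensity trend, 81 with the replicate block, and 59 to 106 with a library left out. Of the related genes together, 8 in the main setting, 1 was called with no filter, 23 with TPM, 5 with no intensity trend, and 5 to 7 with a library left out. Other immediate early genes gave 0, 5 and 1 calls with no filter, with TPM and with no intensity trend, and 1 to 3 with a library left out, where the 3 without control library 1 were 2 rises and 1 fall, of Pim1. Heat shock genes gave 1 with no filter and 10 with TPM, and TPM also gave 2 among AP-1 partners, 3 among phosphatases and decay factors, 2 in the MAP kinase cascade and 1 among turnover genes. Nab1 changed sign under TPM (0.12), without control library 1 (0.013) and without knockout-labelled library 1 (0.046), with -0.18 to 0.046 over the libraries left out, and Atf1 under TPM (0.0083). No filter tests 35246 genes and leaving out a library leaves 5; the cause of the other shifts was not tested. Whether the replicate numbers pair the libraries is not in the labels, and 3 libraries a group are too few to settle it. Same-numbered libraries deviated together at correlations of -0.110, 0.0372 and -0.0791, and the highest correlation, 0.190, joined knockout-labelled library 3 and control library 1. The replicate block moved Egr1 to an adjusted p of 0.0721 by limma, and Jun from 0.236 to 0.0676. Depth limits Egr2 and Atf3, at 11 reads or fewer.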

Other observations

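Among the other immediate early genes and feedback genes, 4 outside the rule for named genes were chosen after their values were seen. Pim1, a survival kinase gene induced by cytokines, stood at 16.2, 11.6 and 10.8 FPKM in knockout-labelled libraries, against 15.6, 28.1 and 23.9 FPKM in control libraries (log2 change -0.75, limma adjusted p = 0.117; called without control library 1). Per1, a clock gene that also responds to glucocorticoids, stood at 8.37, 6.08 and 7.10 FPKM, against 3.82, 3.98 and 5.60 FPKM in control libraries, without overlap (log2 change 0.59, limma adjusted p = 0.107). Dusp1, the phosphatase most often raised together with Fos, had a log2 change near 0 (0.06, limma adjusted p = 0.868). Zfp36, whose product speeds the decay of short-lived mRNAs, stood at 21.5, 17.5 and 17.6 FPKM, against 22.1, 19.1 and 20.1 FPKM in control libraries (log2 change -0.12, limma adjusted p = 0.613). None of the 4 passed the test in the main setting, and the groups overlapped for Pim1, Dusp1 and Zfp36. Per1 was called under TPM (log2 change 0.84, adjusted p = 0.0174 by limma), where 13.2% of all genes were called higher.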
